A study of Mus musculus with 45 samples.

Results

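The expression of DNA damage response and repair genes was examined in 45 mouse mammary tumours that arose in sham-irradiated hosts or in hosts exposed to silicon ions. The list held 52 genes, chosen by role: damage signalling, the marking and processing of DNA breaks, homologous recombination, end joining, base excision, mismatch and nucleotide excision repair, the Fanconi anaemia pathway, and direct reversal. Each gene was read from 1 probe set, the one with the highest mean among those annotated to that symbol alone. Such a probe set was present for 43 of the 52 genes. Rbbp8, Rad54b, Xrcc2, Apex1, Msh6, Xpa, Ercc1, Ddb2 and Fanci had none and were not analysed here. The 43 genes lay above the median of the whole table, 5.67 on the log2 scale, in at least 8 tumours each, as did 12123 of the 18820 genes with such a probe set. Palb2 exceeded that median in only 10 tumours, Mgmt in 12 and Fancc in 14.

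Every tumour grew from mammary fragments of BALB/c donors lacking Trp53, transplanted into the inguinal fat pad of a wild-type BALB/c female of 10 weeks that had been cleared of its own epithelium when 3 weeks old. Only the host was exposed, 3 days before it received the fragment. By host, there were 18 tumours after sham exposure, 9 after 10 cGy of silicon ions, 10 after 30 cGy and 8 after 80 cGy, so that 27 came from Si-irradiated hosts. Tumours were removed at 1 cm3 during 600 days of follow-up, so the arrays report on tumours whose epithelium was not itself exposed, and every group shares the loss of Trp53.

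A DNA double-strand break is bound by the Mre11a-Rad50-Nbn complex and by the Ku proteins. The kinases Atm and Atr, the second acting with its partner Atrip on single-stranded DNA, pass the signal to the checkpoint kinases Chek1 and Chek2, while Mdc1, Rnf8, Rnf168 and Trp53bp1 assemble on the chromatin beside the break. End joining reseals the ends at any time, whereas homologous recombination copies the sister chromatid and is used once DNA has been replicated; many of its genes, with those of the Fanconi anaemia pathway that unhooks crosslinks, are transcribed most in S phase. Base excision, mismatch and nucleotide excision repair remove damaged or mispaired bases, and Mgmt takes alkyl groups directly off guanine. In the mammary gland the pathway is best known for BRCA1 and BRCA2, whose inherited loss in humans predisposes to breast cancer.

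The tumours were epithelial to very different degrees and held varying amounts of other tissue. Krt8, a luminal keratin, ran from 7.01 to 13.36 (median 12.31) and Epcam from 4.80 to 11.97 (median 10.97). Ptprc, which marks leukocytes, ran from 7.67 to 10.12, Acta1 of skeletal muscle from 5.42 to 13.33 and Adipoq of fat cells from 4.47 to 11.33. An index, the mean over a list of its genes' log2 values after centring each gene, exceeded 2 for muscle or adipocyte genes in 10 tumours: 4 of the 18 sham tumours, 1 of the 9 with a dose of 10 cGy, 1 of the 10 with 30 cGy and 4 of the 8 with 80 cGy. In bulk tissue, fewer cells of a type and less RNA per cell cannot be told apart.

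**Figure D1:**
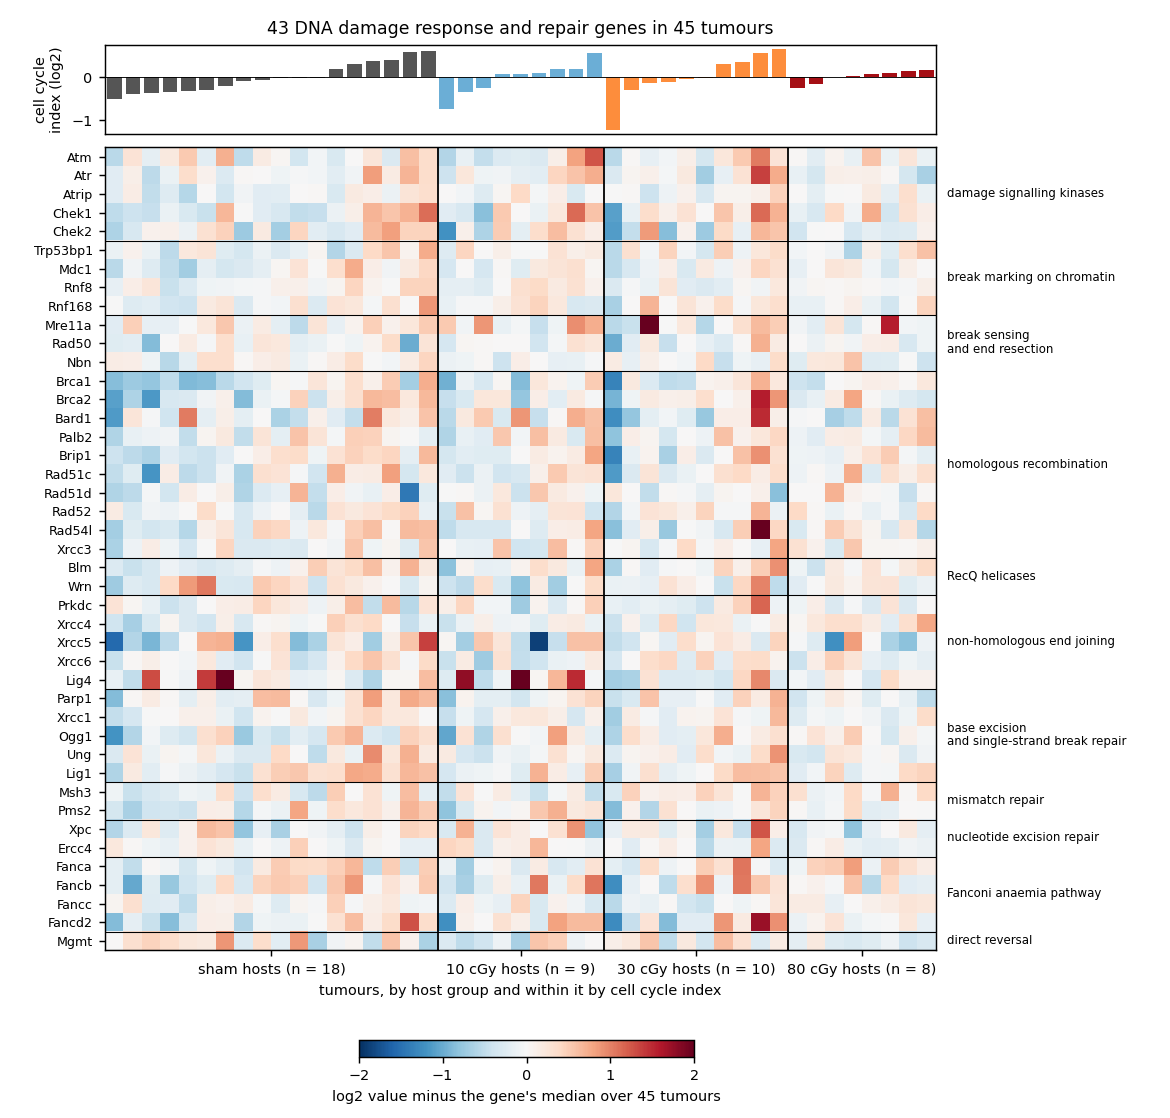
Heat map of the 43 genes (rows, by pathway) in 45 tumours (columns, by host group in order of dose and within a group by cell cycle index), coloured by log2 value minus the gene's median over the 45 tumours; colours saturate at 2 in either direction. Bars above give each tumour's cell cycle index. In the recombination and Fanconi blocks many rows, though not all, turn from blue to red along the bars. At 80 cGy, where the index varied least, r with it was 0.92 for Brca1 but -0.20 for Fancb. No host group stands apart. Isolated dark squares mark individual tumours, in places several per gene, for Mre11a, Rad54l, Xrcc5 and Lig4.

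Most of the repair genes varied less from tumour to tumour than other genes did. The median SD over the 45 tumours was 0.38 log2 for the 43 genes and 0.43 for the 12123 genes, and 13 of the 43 lay above the second value. Rnf8, a ubiquitin ligase at breaks, had the narrowest spread (SD 0.21, range 0.90), followed by Atrip and Fancc. The widest was that of Lig4, the ligase of end joining, with an SD of 0.86 and a range of 3.94, or 15.3-fold. Xrcc5, which encodes a Ku subunit, had an SD of 0.66 and a range of 3.23. Fancd2, Bard1 and Mre11a followed with SDs of 0.59, 0.57 and 0.53.

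The study's main question is whether an exposed host goes with a different tumour. No repair gene was called in any of the 7 host comparisons (limma, Benjamini-Hochberg adjusted p under 0.05 over 12123 genes), and neither was any other gene: the background was 0% for each. The mean of the 3 dose groups minus sham lay between -0.20 and 0.20 log2 for the 43 genes, with a median of 0.02 against 0.01 for all genes. It was above 0 for 25 genes (53.2% of all genes were) and below 0 for 18 (46.8%). At an unadjusted p under 0.05 there were 0 of 43 for Si hosts, where 5.82% of all genes passed, and 0 at 10 cGy, where 3.65% did. There was 1 at 30 cGy against a background of 4.45%, 1 at 80 cGy against 6.97% and 3 for the slope on dose against 7.43%. The F test over the 4 groups gave 1 (background 4.13%) and the F test among the 3 doses 1 (background 3.98%), in both cases Msh3. These shares are near or below the background.

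The data limit how large a missed difference could be. The 95% intervals of Si hosts minus sham lay within 0.5 log2 of 0 for 42 of the 43 genes and within 1 log2 for all 43, with the lowest bound at -0.59 for Lig4 and the highest at 0.46 for Fancd2. At 80 cGy, 24 of 43 intervals lay within 0.5 and 43 within 1. At 10 cGy 42 lay within 1, the exception being Lig4, whose interval reached 1.08, and at 30 cGy 42 did, Lig4 again being the exception with a bound at -1.05.

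Among end joining genes Xrcc4, the partner that stabilises Lig4, had the smallest p for a difference from sham. Xrcc4 ran from 6.87 to 8.01 in sham tumours (median 7.49), from 7.09 to 7.72 at 10 cGy (median 7.43), from 7.11 to 7.95 at 30 cGy (median 7.58) and from 7.32 to 8.32 at 80 cGy (median 7.82). The groups overlapped, but 7 of 8 tumours at 80 cGy lay above the sham mean, as did 10 of the 18 sham tumours. The difference at 80 cGy was 0.34 ± 0.12 log2 (limma, SE; unadjusted p = 0.00879, adjusted p = 0.652) and the slope 0.00422 ± 0.00147 log2 per cGy (adjusted p = 0.550). The difference was 0.26 without 80 cGy tumour 5, the highest for this gene, and 0.25 without the 10 tumours with a muscle or adipocyte index above 2 (unadjusted p = 0.0969). The 4 other end joining genes had negative Si minus sham values, from -0.09 for Lig4 to -0.002 for Xrcc5, with Prkdc, the DNA-PK catalytic subunit, at -0.07 and Xrcc6, the other Ku subunit, at -0.05.

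Msh3, a mismatch recognition protein, was the gene with the smallest p at 30 cGy. Msh3 ran from 6.16 to 7.31 in sham tumours (median 6.60), from 6.19 to 6.96 at 10 cGy (median 6.65), from 6.39 to 7.37 at 30 cGy (median 6.89) and from 6.57 to 7.40 at 80 cGy (median 6.86). At 30 cGy 9 of 10 tumours lay above the sham mean, against 7 of the 18 sham tumours. The difference was 0.27 ± 0.13 log2 at 30 cGy (limma; unadjusted p = 0.0349, adjusted p = 0.990) and 0.24 ± 0.14 at 80 cGy, while the value at 10 cGy was -0.08. Without 80 cGy tumour 1 the value at 80 cGy was 0.17, and without the tumours with a muscle or adipocyte index above 2 it was 0.10. Pms2, which acts after mismatch recognition, had a Si minus sham value of -0.01.

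In homologous recombination 9 of 10 genes had a Si mean above sham, where 53.2% of all genes did. The median difference was 0.08 log2 and no gene passed the test. Rad51d, which acts in the early steps of strand exchange, had the largest. Rad51d ran from 5.43 to 7.54 in sham tumours (median 6.71), from 6.43 to 7.40 at 10 cGy (median 6.88), from 6.02 to 7.09 at 30 cGy (median 6.87) and from 6.39 to 7.55 at 80 cGy (median 6.87). In Si hosts 23 of 27 tumours lay above the sham mean, against 10 of 18 in sham hosts, and the lowest value of all, 5.43, was that of sham tumour 18. The difference was 0.20 ± 0.11 (limma; unadjusted p = 0.0834, adjusted p = 0.889), 0.13 without that tumour, and 0.09 without the tumours with a muscle or adipocyte index above 2. Brca2, a mediator of strand exchange on resected DNA, ran from 5.60 to 7.40 in sham tumours (median 6.69), from 5.97 to 6.97 at 10 cGy (median 6.72), from 5.81 to 8.31 at 30 cGy (median 6.86) and from 6.40 to 7.54 at 80 cGy (median 6.60). Brca2 differed by 0.33 ± 0.20 log2 at 30 cGy (limma, adjusted p = 0.990), and by 0.18 without 30 cGy tumour 9. Rad54l, a DNA translocase, was the only gene of this group below sham, at -0.06.

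Of the base excision genes 4 of 5 had Si values below sham, where 46.8% of all genes did. The median was -0.07 and none passed the test. Deviations from the group means had a median correlation of 0.45 between base excision genes and 0.28 between recombination genes. Their signs are therefore not separate counts, and a difference between the pathways was not tested. Parp1, which senses strand breaks, ran from 7.06 to 8.77 in sham tumours (median 8.00), from 7.09 to 8.38 at 10 cGy (median 7.85), from 7.49 to 8.62 at 30 cGy (median 7.85) and from 7.42 to 8.13 at 80 cGy (median 7.82). Above the sham mean lay 7 of 27 Si tumours and 8 of 18 sham tumours. The Si minus sham value of Parp1 was -0.20 ± 0.12 (limma; unadjusted p = 0.106, adjusted p = 0.906) and it was -0.28 ± 0.17 at 80 cGy. Ogg1, which excises oxidised guanine, was the exception at 0.18 ± 0.14. Ung, the uracil glycosylase, Xrcc1, the scaffold of single-strand break repair, and Lig1, the replicative ligase, lay between -0.09 and -0.05.

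Mgmt, which lay under the table median in most tumours, ran from 4.77 to 6.29 in sham tumours (median 5.56), from 4.77 to 5.98 at 10 cGy (median 5.31), from 4.91 to 6.03 at 30 cGy (median 5.59) and from 5.00 to 5.61 at 80 cGy (median 5.18). At 80 cGy all 8 tumours lay under the table median and 1 of 8 above the sham mean, while 11 of 18 sham tumours lay under that median and 9 of 18 above their own mean. The difference at 80 cGy was -0.31 ± 0.17 log2 (limma; unadjusted p = 0.0663, adjusted p = 0.745).

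The remaining genes with the smallest p in a dose group were spread over several pathways. Wrn, a RecQ helicase, ran from 5.81 to 7.58 in sham tumours (median 6.58), from 5.71 to 6.89 at 10 cGy (median 6.22), from 6.01 to 7.52 at 30 cGy (median 6.46) and from 6.28 to 6.78 at 80 cGy (median 6.55). Nbn, of the break-sensing complex, ran from 6.65 to 7.62 in sham tumours (median 7.32), from 6.79 to 7.32 at 10 cGy (median 7.11), from 6.73 to 7.60 at 30 cGy (median 7.17) and from 6.78 to 7.77 at 80 cGy (median 7.07). At 10 cGy Wrn differed from sham by -0.30 ± 0.17 log2 and Nbn by -0.17 ± 0.11 (limma, adjusted p = 0.991 and 0.991). A second probe set of Nbn tracked the first only weakly over the 45 tumours (r = 0.28), and at a median of 4.77 it lay below the table median. Ercc4, a nuclease of nucleotide excision repair, ran from 6.33 to 7.09 in sham tumours (median 6.61), from 6.33 to 7.28 at 10 cGy (median 6.71), from 6.05 to 7.41 at 30 cGy (median 6.55) and from 6.33 to 6.76 at 80 cGy (median 6.49). Ercc4 differed by 0.14 ± 0.11 at 10 cGy. Xpc, which recognises the lesion in that pathway, had a Si minus sham value of 0.05.

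Fancc, a subunit of the Fanconi core complex, ran from 5.06 to 6.05 in sham tumours (median 5.59), from 5.24 to 6.02 at 10 cGy (median 5.48), from 5.03 to 5.81 at 30 cGy (median 5.47) and from 5.41 to 5.82 at 80 cGy (median 5.73). Rnf8 ran from 6.38 to 7.28 in sham tumours (median 6.85), from 6.57 to 7.21 at 10 cGy (median 6.91), from 6.54 to 7.08 at 30 cGy (median 6.72) and from 6.76 to 6.94 at 80 cGy (median 6.85). At 30 cGy Fancc differed by -0.15 ± 0.09 and Rnf8 by -0.12 ± 0.09 log2, neither of them called. Fanca, another core subunit, had a slope of 0.00404 ± 0.00196 log2 per cGy (limma; unadjusted p = 0.0447, adjusted p = 0.660) and a difference of 0.28 ± 0.16 at 80 cGy. Among damage signalling kinases the Si minus sham values ran from -0.12 for Chek2 to 0.13 for Chek1, and among the 4 chromatin genes from -0.04 to 0.08.

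**Figure D2:**
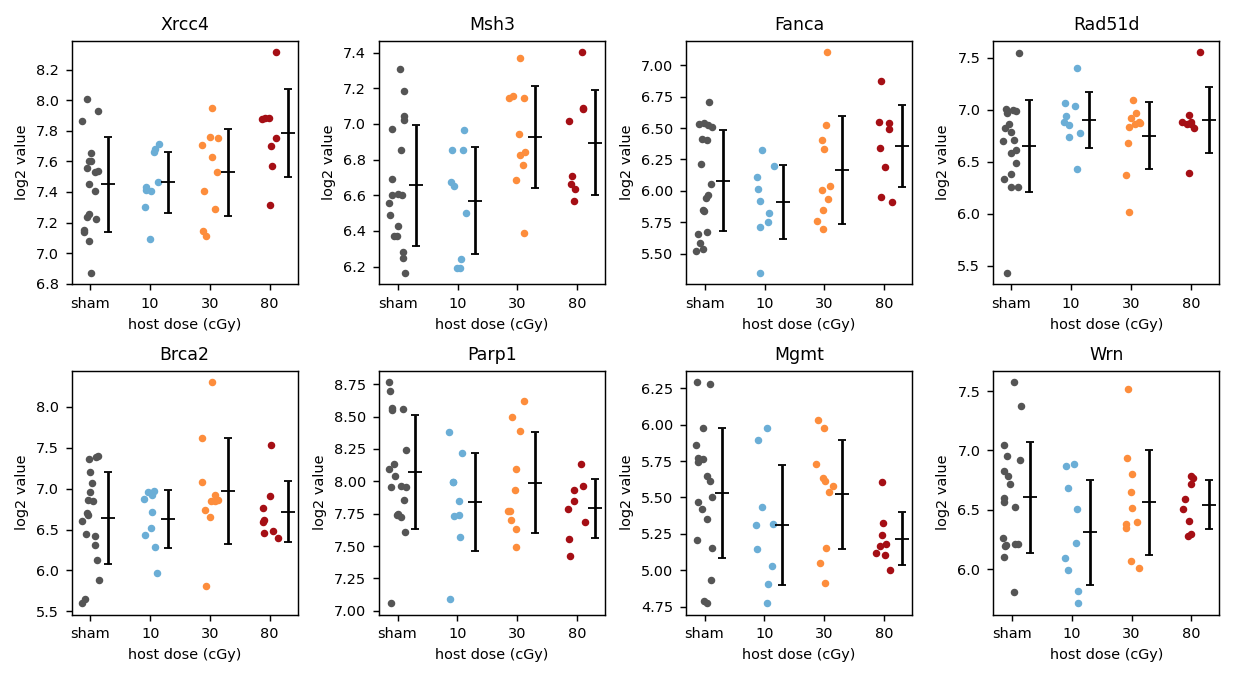
Log2 values of 8 genes by host dose in cGy (sham, 10, 30 and 80; n = 18, 9, 10 and 8 tumours), each point a tumour and each bar the mean ± SD. The groups overlap for every gene drawn; at 80 cGy Xrcc4 has a median of 7.82, against 7.49 in sham tumours, and Mgmt a median of 5.18, against 5.56 in sham tumours.

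Across tumours, many of the repair genes varied with the expression of cell cycle genes. A cell cycle index was taken as the mean of 35 centred cell cycle genes, none of them among the 52, and each gene's slope on it was fitted with host group in the model. Of the 43 genes, 25 were called, all of them with higher values in tumours with a higher index (limma, adjusted p under 0.05), where 13.2% of 12088 genes were called in either direction and 10.3% in this direction. The slope was positive for 40 of 43, and for 56.6% of all genes. The median slope was 0.41 log2 per unit of index for these genes and 0.06 for all genes tested. The index itself did not separate the host groups: it ran from -0.49 to 0.60 in sham tumours, from -0.73 to 0.56 at 10 cGy, from -1.22 to 0.66 at 30 cGy and from -0.25 to 0.17 at 80 cGy, with group means between -0.01 and 0.01.

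The count was lower in some other settings, and the cause was not tested. It was 14 with the replicate number as a block and 16 with Mki67 alone as the index. Of all 12088 genes 329 and 780 were called in these settings, against 1601 in the main fit. With muscle and adipocyte indices as covariates 17 of the 43 genes were called, and 495 of all genes. Without the 10 tumours in which either index exceeded 2 there were 16, and 575 of all genes. Both settings were chosen after the data were seen. The muscle index ran from -1.58 to 6.13 in sham tumours, from -1.52 to -0.49 at 10 cGy, from -1.44 to 6.54 at 30 cGy and from -1.37 to 4.13 at 80 cGy. The adipocyte index ran from -1.79 to 4.11 in sham tumours, from -1.67 to 2.20 at 10 cGy, from -1.30 to 4.95 at 30 cGy and from -1.36 to 2.37 at 80 cGy. The muscle list kept 7 of its 10 genes and the adipocyte list 6 of 8. Over the 45 tumours the cell cycle index had r = -0.57 with the adipocyte index and r = -0.33 with the muscle index. 30 cGy tumour 1 had the highest value of both tissue indices and the lowest cell cycle index. It was the lowest of the 45 tumours in 16 of the 43 repair genes (37.2%), against 5.37% of all genes. Without this tumour 23 repair genes were called, and 1115 of all 12088 genes. Blm, Brca1, Brca2, Brip1, Chek1, Fancd2, Lig1 and Pms2, 8 of the 25 genes, kept their call in all 60 alternative settings, of which 45 left out a single tumour.

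**Figure D3:**
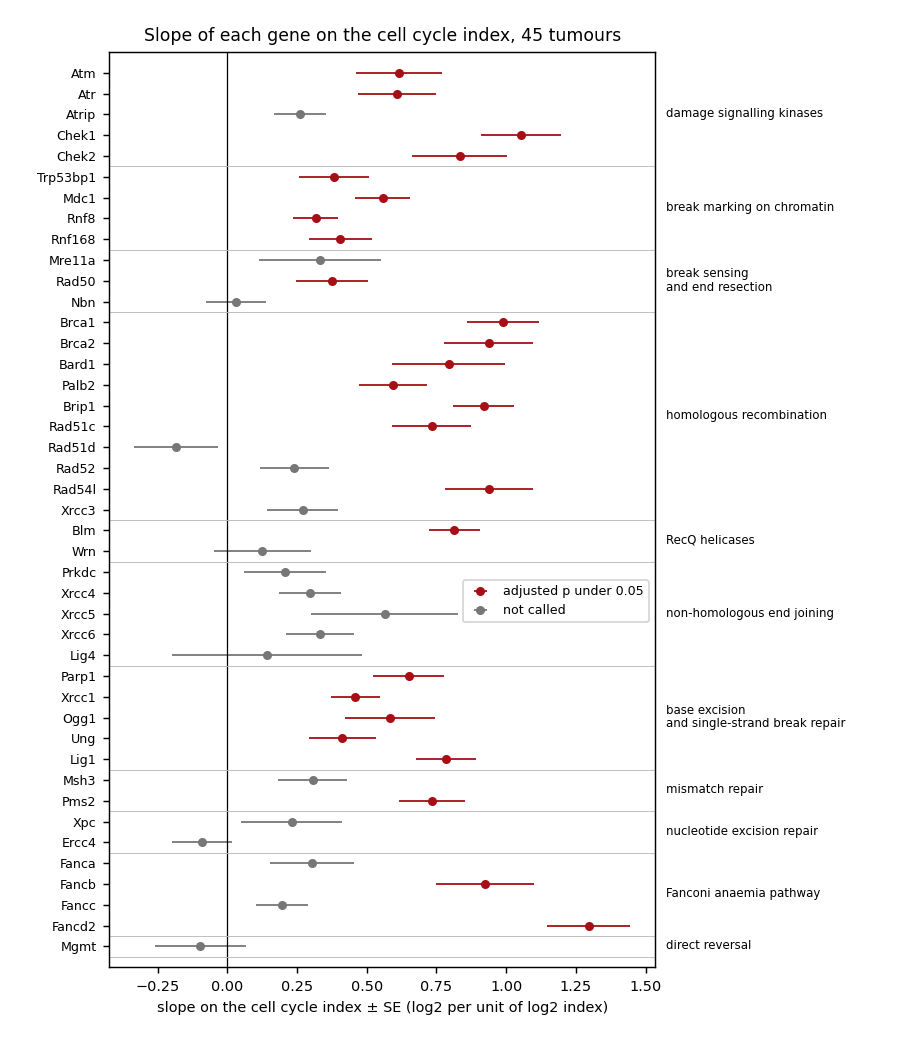
Slope of each of the 43 genes on the cell cycle index (log2 per unit of log2 index, ± SE; limma with host group in the model, 45 tumours), listed by pathway, red where adjusted p was under 0.05. In this fit all 5 base excision genes and all 4 chromatin genes are red, and none of the 5 end joining genes is.

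Damage signalling kinases were called in 4 of 5 cases, of which Chek1 and Chek2 kept their call with the replicate block and with muscle and adipocyte covariates. Chek1, the effector of Atr, ran from 6.99 to 8.62 in sham tumours (median 7.32), from 6.67 to 8.63 at 10 cGy (median 7.51), from 6.41 to 8.64 at 30 cGy (median 7.71) and from 7.13 to 8.24 at 80 cGy (median 7.53). The slope of Chek1 was 1.05 ± 0.14 log2 per unit of index (limma, adjusted p = 9.27e-07), with r = 0.75 over the 45 tumours. Chek2 had a slope of 0.83 ± 0.17, Atm 0.62 ± 0.15 and Atr 0.61 ± 0.14. Atm and Chek2 were not called without the tumours rich in muscle or fat. Atrip missed the threshold with 0.26 ± 0.09 (limma, adjusted p = 0.0533).

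The 4 genes that mark chromatin beside a break were all called, with smaller slopes. Mdc1, the adaptor that binds phosphorylated H2AX, had 0.56 ± 0.10, Rnf168 0.41 ± 0.11, Trp53bp1 0.38 ± 0.13 and Rnf8 0.32 ± 0.08. None of the 4 was called with the replicate block or with Mki67 alone as the index, and with muscle and adipocyte covariates only Mdc1 and Rnf8 were. The call of Trp53bp1 was also lost in 7 fits that left out 1 tumour and that of Rnf168 in 1. Of the break-sensing complex, Rad50 had 0.38 ± 0.13 (limma, adjusted p = 0.0472), a call that was lost in 25 of the 45 fits that left out 1 tumour. Mre11a, its nuclease, had 0.33 ± 0.22 and Nbn 0.03 ± 0.11, neither called.

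Homologous recombination held the largest group, with 7 of 10 called and a median slope of 0.76. Brca1 ran from 6.42 to 8.02 in sham tumours (median 6.99), from 6.33 to 7.80 at 10 cGy (median 7.21), from 5.96 to 8.00 at 30 cGy (median 7.38) and from 6.81 to 7.50 at 80 cGy (median 7.33). Its slope was 0.99 ± 0.13 (limma, adjusted p = 3.60e-07). Brca2, given by group above, had 0.94 ± 0.16 (limma, adjusted p = 5.01e-05). Rad54l ran from 6.13 to 7.45 in sham tumours (median 6.87), from 6.31 to 7.60 at 10 cGy (median 6.55), from 5.98 to 8.87 at 30 cGy (median 6.77) and from 6.25 to 7.32 at 80 cGy (median 6.85). The slope of Rad54l was 0.94 ± 0.16 (limma, adjusted p = 4.34e-05), and 0.78 without 30 cGy tumour 9, its highest value.

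The partners of the BRCA proteins were called as well. Brip1, a helicase that binds BRCA1, had a slope of 0.92 ± 0.11, Bard1, which forms a ubiquitin ligase with BRCA1, 0.79 ± 0.20, and Palb2, which bridges BRCA1 and BRCA2, 0.59 ± 0.12. Rad51c, which also acts in the resolution of recombination intermediates, had 0.73 ± 0.14. Bard1 lost its call with muscle and adipocyte covariates, and Bard1 and Rad54l with the replicate block. Bard1, Palb2 and Rad51c lost theirs without the tumours rich in muscle or fat. Xrcc3 and Rad51d did not pass: Xrcc3 had 0.27 ± 0.13 and Rad51d -0.18 ± 0.15. Rad52 had 0.24 ± 0.12. Of the RecQ helicases, which unwind recombination intermediates, Blm had 0.81 ± 0.09 (limma, adjusted p = 1.41e-08), the smallest p of the 43, and Wrn 0.13 ± 0.17, which did not pass.

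No end joining gene was called. Their slopes were all positive, from 0.14 ± 0.34 for Lig4 to 0.56 ± 0.26 for Xrcc5, with adjusted p between 0.0636 and 0.825 (limma). That none passed does not show that they were unrelated to cycling, since the interval for Xrcc5 is wide and Xrcc6 and Xrcc4, at 0.33 ± 0.12 and 0.30 ± 0.11, lay close to the threshold.

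All 5 genes of base excision and single-strand break repair were called. Lig1, which also joins Okazaki fragments, had a slope of 0.78 ± 0.11, Parp1 0.65 ± 0.13, Ogg1 0.58 ± 0.16, Xrcc1 0.46 ± 0.09 and Ung 0.41 ± 0.12. With muscle and adipocyte covariates Lig1, Parp1 and Xrcc1 were called, and with the replicate block or Mki67 alone Lig1 and Xrcc1. Over the alternatives other than leaving out 1 tumour, Ogg1 lost its call in 6 and Ung in 5. In mismatch repair Pms2 was called with 0.74 ± 0.12, and Msh3 was not, with 0.31 ± 0.12. Neither nucleotide excision gene passed, Xpc having 0.23 ± 0.18 and Ercc4 -0.09 ± 0.11, and Mgmt had -0.10 ± 0.16.

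In the Fanconi anaemia pathway the genes divided. Fancd2, the protein that is ubiquitinated to start crosslink repair, ran from 5.45 to 7.60 in sham tumours (median 6.27), from 5.10 to 7.13 at 10 cGy (median 6.44), from 5.06 to 8.05 at 30 cGy (median 6.30) and from 6.16 to 6.59 at 80 cGy (median 6.30). It had the largest slope of the 43 genes, 1.30 ± 0.15 (limma, adjusted p = 2.48e-08). Fancb, a core complex subunit encoded on the X chromosome, ran from 5.22 to 7.11 in sham tumours (median 6.27), from 5.59 to 7.30 at 10 cGy (median 6.10), from 5.00 to 7.29 at 30 cGy (median 6.38) and from 5.69 to 6.80 at 80 cGy (median 6.24). The slope of Fancb was 0.92 ± 0.18 (limma, adjusted p = 0.000250). The core subunits Fanca and Fancc had 0.30 ± 0.15 and 0.20 ± 0.09 and were not called.

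Correlations with the index were computed for each of the 43 genes over the 45 tumours (permutation test, two-sided, 100000 resamples, Benjamini-Hochberg over 43). Blm had Pearson's r = 0.83 and Spearman's rho = 0.82, each with the smallest permutation p that these resamples can give, 1e-05 (adjusted 3.91e-05 and 5.37e-05). For Fancd2 r was 0.80 and rho 0.77, with the same p. Without the 2 tumours farthest from the median index, 30 cGy tumour 1 and 10 cGy tumour 5, r was 0.80 for Blm and 0.75 for Fancd2. Within groups, r for Blm was 0.82 (sham), 0.84 (10 cGy), 0.89 (30 cGy) and 0.74 (80 cGy). Fancd2 had 0.80, 0.81, 0.84 and 0.13 in the same order. At 80 cGy r among the genes called on the index ran from -0.28 for Ogg1 to 0.92 for Brca1. Fancb, Atr, Rad50, Pms2, Rad54l and Parp1 were also below 0 there, and the other called genes above 0. The SD of the index was 0.34 for sham, 0.37 for 10 cGy, 0.54 for 30 cGy and 0.15 for 80 cGy. Whether the relation differs between groups was not tested. Lig4 and Nbn had r = 0.05 each, and the lowest values were those of Mgmt (-0.09), Ercc4 (-0.14) and Rad51d (-0.18).

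**Figure D4:**
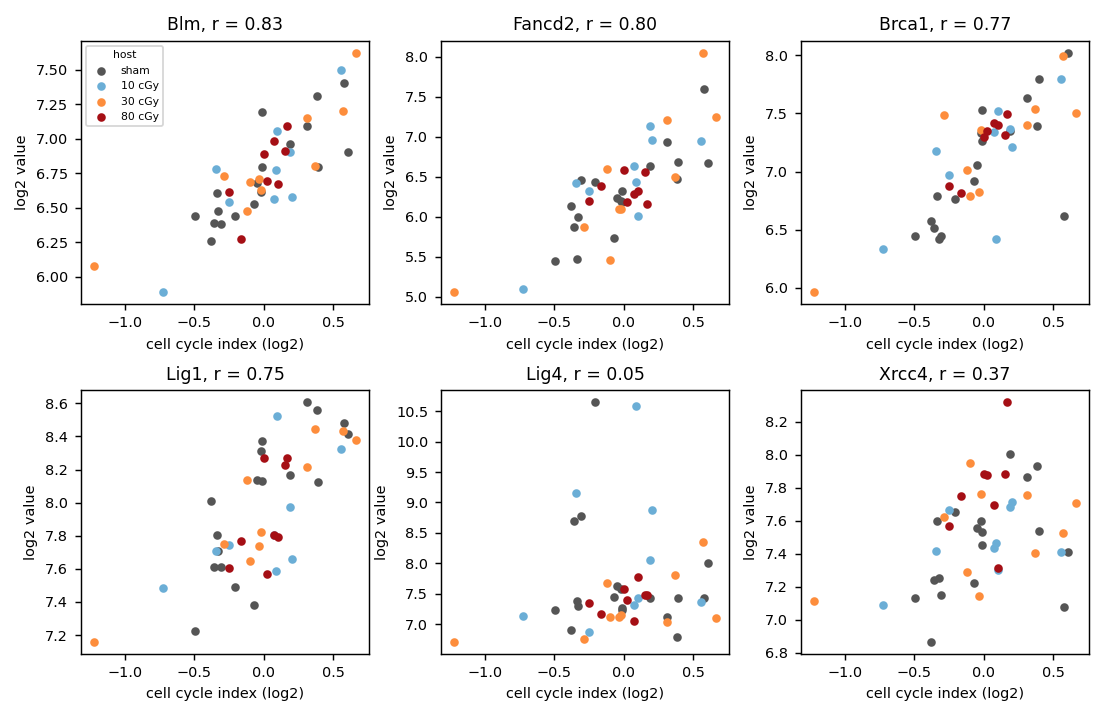
Log2 value of Blm, Fancd2, Brca1, Lig1, Lig4 and Xrcc4 against the cell cycle index (log2) in 45 tumours, coloured by host group, with Pearson's r above each panel. Points of the 4 host groups lie along a shared slope for Blm (r = 0.83), whereas Lig4 (r = 0.05) shows a flat band with a few high tumours.

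The proximal promoters of the called genes were searched for the E2F motif, which is bound by the factors that drive S phase transcription. RefSeq promoters (GRCm38.p6, 250 bases before and 50 after the annotated start) were found for 36 of the 43 genes. The words searched on both strands were TTTCCCGC, TTTGGCGC, TTTCGCGC and TTTGCCGC, and a looser search dropped the first T of each. An 8-letter word was present in 6 of 23 called genes (Chek2, Mdc1, Brca2, Bard1, Rad51c and Lig1), in 2 of 13 that were not called, and in 4.61% of 9656 genes of the test and 2.26% of all 32851 promoters. The 7-letter word, which every 8-letter word contains, was present in 15 of 23 and 5 of 13, and in 18.8% of the genes of the test. Both other motifs searched are given for comparison. CCAAT was in 13 of 23 called genes, in 8 of 13 not called and in 42.6% of the genes of the test. The CHR word TTTGAA was in 2 of 23 and 0 of 13, and in 14.3% of the genes of the test. Binding was not measured, and a match is only a run of letters. The 250 bases before the start are shown for 3 called genes, a checkpoint kinase and both sides of the BRCA system, with the 8-letter word in capitals.
Chek2: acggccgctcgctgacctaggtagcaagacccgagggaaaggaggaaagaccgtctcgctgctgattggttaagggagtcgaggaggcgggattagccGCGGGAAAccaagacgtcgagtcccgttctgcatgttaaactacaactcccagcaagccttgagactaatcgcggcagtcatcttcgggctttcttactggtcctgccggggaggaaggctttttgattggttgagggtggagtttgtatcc
Brca2: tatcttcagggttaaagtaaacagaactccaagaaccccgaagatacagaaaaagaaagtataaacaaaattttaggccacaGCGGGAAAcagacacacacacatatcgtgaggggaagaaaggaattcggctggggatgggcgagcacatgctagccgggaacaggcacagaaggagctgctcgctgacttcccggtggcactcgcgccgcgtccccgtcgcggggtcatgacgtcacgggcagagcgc
Bard1: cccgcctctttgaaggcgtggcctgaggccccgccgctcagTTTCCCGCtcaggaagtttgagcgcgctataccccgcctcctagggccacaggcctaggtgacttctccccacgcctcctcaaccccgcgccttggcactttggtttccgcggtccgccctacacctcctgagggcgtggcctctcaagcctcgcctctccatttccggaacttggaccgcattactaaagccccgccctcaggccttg
The windows are chr5:110839733-110839982 on the plus strand for Chek2, chr5:150522371-150522620 on the plus strand for Brca2 and chr1:71102973-71103222 on the minus strand for Bard1, all GRCm38.p6. The words begin 152, 168 and 209 bases before the start, in that order. In Chek2 and Brca2 the word reads as the reverse complement, GCGGGAAA. Chek2, Brca2 and Bard1 had slopes on the index of 0.83, 0.94 and 0.79.

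The tumours also differed in the expression of epithelial junction genes. On an index of 24 junction genes 6 of 43 were called (limma, adjusted p under 0.05), where 35.5% of 12099 genes were. Trp53bp1 (0.13 ± 0.04 log2 per unit of index), Xpc (0.15 ± 0.05) and Bard1 (0.16 ± 0.06) were higher in tumours with more junction expression, and Fancb (-0.26 ± 0.05), Fanca (-0.16 ± 0.04) and Mdc1 (-0.09 ± 0.04) were lower. These 3 and 3 genes stand against 15.9% of all genes called higher and 19.5% called lower. Fancb and Trp53bp1 kept this call in all 58 alternative settings. Of the 13 that did more than leave out 1 tumour, Bard1 lost it in 5 and Mdc1 in 4, and with the other indices as covariates Xpc and Fanca lost it too, while Nbn and Pms2 were called. Fancb had a positive slope on the cell cycle index and a negative one on the junction index.

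Of 92 further repair genes, 75 passed the filter. On the cell cycle index 40 of 75 were called with higher values and 0 with lower ones. Of all 12088 genes tested, 10.3% were called higher and 356 were called lower. The smallest p were those of Exo1, a resection nuclease (1.17 ± 0.09, limma, adjusted p = 2.95e-13), and Pole, a replicative polymerase (1.08 ± 0.11, adjusted p = 1.86e-09). On host comparisons 0 were called. At an unadjusted p under 0.05, 1 had a higher mean in Si hosts than in sham hosts, where 3.51% of all genes did, and 3 had a lower one, where 2.32% did. The first was Slf1 (0.37 ± 0.11, limma, adjusted p = 0.796). The 3 were Mad2l2 of the shieldin complex (-0.29 ± 0.12, limma, adjusted p = 0.808), Aptx, which clears abortive ligation products (-0.20 ± 0.10), and the nuclease scaffold Slx4 (-0.19 ± 0.09).

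Finally, the 45 tumours were searched for any in which a gene stood alone. A tumour was called lone where its value lay at least 1 log2 beyond the next. No repair gene had a lone lowest tumour (0 of 43; background 0.577% of 12123 genes), so no tumour lacked any of the 43 genes by this rule. The lowest values nearest to it were those of Brip1 in 30 cGy tumour 1 (5.54, the next 6.23) and Rad51d in sham tumour 18 (5.43, the next 6.02). Rad54l had a lone highest tumour, 30 cGy tumour 9, at 8.87 with the next at 7.60 (1 of 43; background 4.46%). That tumour was the highest of the 45 in 12 of the 43 repair genes (27.9%), Atr, Brca2, Bard1 and Fancd2 among them, against 2.43% of all genes. Without 30 cGy tumours 1 and 9, 22 repair genes were called on the cell cycle index, against 25 with them. Of all 12088 genes 1129 were called without these tumours and 1601 with them.

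The neighbours of these genes on the chromosome were read in the same tumours, 5 measured genes on each side in RefSeq order; apart from Rad54l the genes were chosen after their values were seen. In 30 cGy tumour 9, 5 of the 10 neighbours of Rad54l on chromosome 4 were also the highest of the 45 tumours, where 2.43% of all genes were; they were Nsun4, Uqcrh, Lrrc41, Pomgnt1 and Mast2. Their values lay 0.73 to 1.31 above the median of 45 tumours, and that of Rad54l 2.06 above it. Over all 10 neighbours the values ran from 0 (Mknk1) to 2.26 (Tspan1) above the median, with a middle value of 1.26.

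Mre11a showed the same arrangement on chromosome 9. Its highest values were 10.27 in 30 cGy tumour 7 and 9.61 in 80 cGy tumour 1, against a median of 8.04. In the first of these tumours 7 of 10 neighbours were the highest of the 45, where 1.35% of all genes were. Med17, Cwc15 and Ankrd49 lay 1.86, 1.88 and 1.82 above their medians there. In 80 cGy tumour 1, 5 of 10 neighbours were among the 3 highest, where 5.57% of all genes were, Cwc15, Amotl1, Panx1 and Med17 being the second highest.

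Lig4 was highest in sham tumour 12 (10.65) and 10 cGy tumour 7 (10.59), against a median of 7.39. Its next neighbour on chromosome 8, Abhd13, was the second highest and the highest of the 45 in these tumours, 2.87 and 3.03 above its median. Other neighbours followed less closely: 4 and 5 of 10 were among the 3 highest, where 6.90% and 6.05% of all genes were. For Rad51d on chromosome 11, 4 of 10 neighbours were the lowest of the 45 in sham tumour 18 (Rffl, Zfp830, Slfn2 and Slfn1), where 6.61% of all genes were. Lig3, a repair ligase that also lies there, was 0.39 below its median and not the lowest. Over the 45 tumours r between Rad51d and its neighbours ran from -0.13 to 0.26. It ran from 0.15 to 0.88 for Mre11a, from -0.03 to 0.53 for Rad54l and from 0.01 to 0.94 for Lig4. The leukocyte index of sham tumour 18 was -1.59, where the 45 tumours ran from -1.73 to 1.26. Whether the neighbours follow leukocyte content was not tested.

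**Figure D5:**
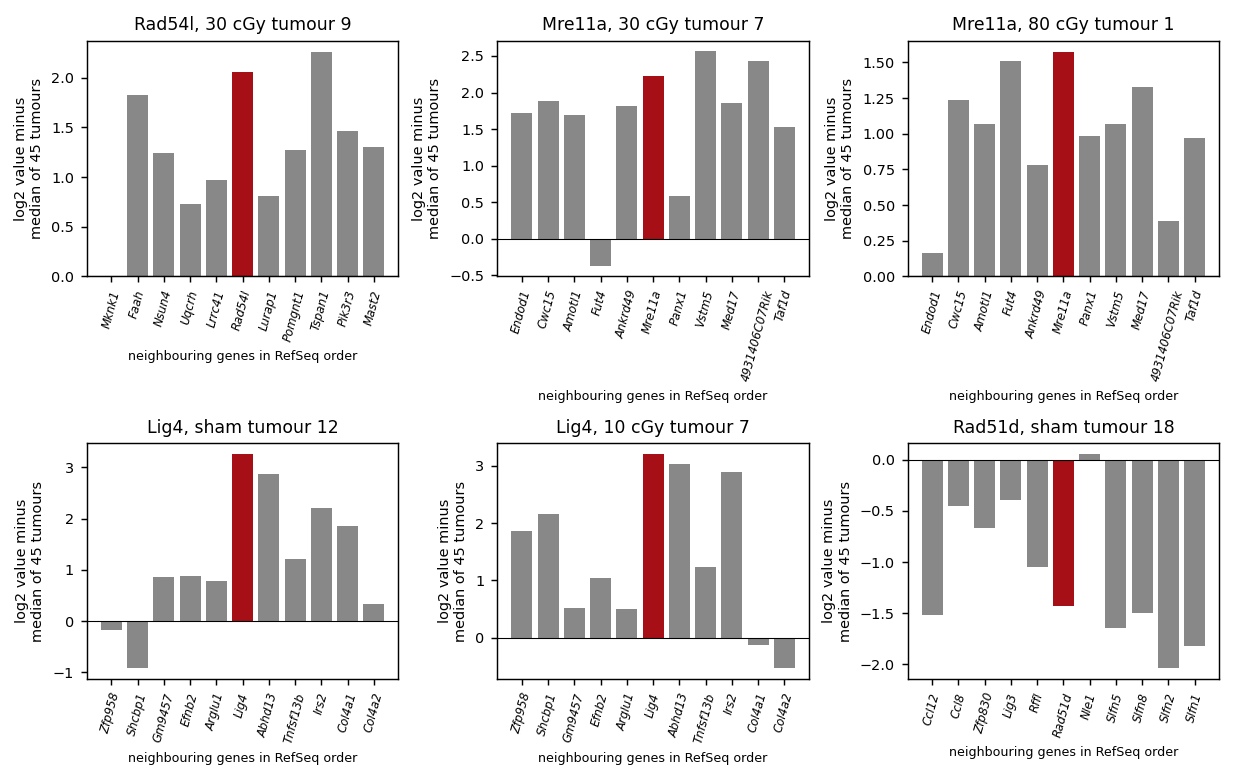
Log2 value minus the median of 45 tumours for Rad54l, Mre11a, Lig4 and Rad51d (red) and the 5 measured genes on each side in RefSeq order (grey), each panel in 1 tumour. Most neighbours of Mre11a in 30 cGy tumour 7 lie more than 1.5 above their medians, while around Lig4 in sham tumour 12 Abhd13 stands out at 2.87.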

How the data were processed

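Single-colour Affymetrix arrays of 45 tumours were used, 1 per tumour, grouped by the sample titles; tumours are numbered as there. The authors deposited normalized expression per probe set, taken as log2 from the range of the values, 1.34 to 14.06; RMA and oligo are the tools the submitters' processing notes name, without a version. RMA corrects background, applies quantile normalization and summarises the probes of a set. Array medians lay between 5.48 and 5.80, and the number of arrays limits the precision. Of 35556 probe sets, 21218 carried 1 gene symbol, 1881 several and 12457 none in the annotation used; 21185 of the 21218 were found in RefSeq. The 43 genes, the gene lists and the promoters were matched by symbol.

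Tests used limma 3.58.1 in R 4.3.3 on all genes that passed the filter, with the 4 group means fitted together, two-sided p and Benjamini-Hochberg adjustment at 0.05; errors of limma values are SE. The index slopes had host group in the model. Permutation tests and figures used Python 3.11.15 with scipy 1.17.1. Scripts were tested on simulated data. The members, gene lists, indices and tests were chosen with earlier results of these data known. The genes given by group were, in each host comparison, the 2 with the smallest p on either side, then the 6 with the largest called slope on the cell cycle index, and any with a lone tumour.

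Tumours are taken as separate samples, so p-values measure the spread between them. Of the 37 stems of the description codes 8 are shared by 2 tumours, and the labels do not say what the stem means. Deviations within these 8 pairs correlated at -0.112 to 0.694 (median -0.0105). With the stem as a random block (consensus correlation 0.241) host comparisons called 0 repair genes and 0 of all 12123 genes. The cell cycle index then called 25 repair genes, and 1605 of all 12088 genes. The junction index called 5 repair genes, and 4200 of all 12099 genes. The replicate numbers do not pair tumours: of 52 pairs with the same number in different groups, 10 had correlated deviations above 0.1. Alternatives covered the filter, the probe set, centring, array weights, the replicate number or the code stem as a block, other indices and leaving out each tumour.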

Additional observations from a re-analysis of the deposited data

Results flagged for a closer look

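Within the groups of 8, 9 and 10 tumours, 129 combinations of gene and group were checked by Dixon's test for a tumour far from the others, and 13 passed; chance alone marks about 1 in 20 groups, and sham, with 18 tumours, was not checked. In 30 cGy tumour 9 the values of Rad54l (8.87), Bard1 (8.44), Xpc (8.13) and Ercc4 (7.41) lay far above the rest of their group. In 30 cGy tumour 1 the values of Rnf168 (7.93) and Rad51c (5.84) lay far below it. Mre11a stood apart in 30 cGy tumour 7 (10.27) and in 80 cGy tumour 1 (9.61). In 10 cGy tumour 9 Brip1 (7.66) and Rad54l (7.60) were far above the group. At 80 cGy tumour 3 stood apart in Brca2 (7.54) and Pms2 (7.95), and tumour 5 in Xrcc1 (7.85).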

How the results depend on the processing

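The host comparisons gave 0 called repair genes under every alternative run, including each of the 45 fits without 1 tumour. Other genes were called in a few of these settings. Of all 12123 genes, array weights called 30 at 80 cGy, 25 on the dose slope and 2 in the F test over the 4 groups. The replicate block called 6 for Si hosts and 1 at 80 cGy, and a fit of 80 cGy and sham tumours only called 1. Among alternatives, the lowest adjusted p for the genes given by group was 0.144 (limma), for the dose slope of Xrcc4 with array weights. The count of 25 on the cell cycle index was 14 with the replicate number as a block, although the numbers do not pair the tumours. It was 16 with Mki67 alone as the index. It was also 16 without the tumours rich in muscle or fat, a setting chosen after seeing the data. Over all 12088 genes the count of 1601 was 329, 780 and 575 in these settings, in that order. Without single tumours the count of repair genes on this index lay between 22 and 27, and that of all genes between 1115 and 1689. The junction count of 6 lay between 4 and 7 without single tumours and between 4 and 8 in the other settings. Of all 12099 genes 4290 were called on the junction index in the main fit. In the setting with 4 repair genes, other indices as covariates, 2468 of all genes were called. The 8 came with array weights, where 5212 were called, and without 30 cGy tumours 1 and 9, where 4300 were. Only genes that were not called turned sign on the cell cycle index. With the replicate block Nbn was at -0.20, Rad51d at 0.12 and Mgmt at 0.23. With Mki67 alone Nbn was at -0.12, Xrcc5 at -0.12, Ercc4 at 0.14, Fanca at -0.11 and Mgmt at 0.0335. Nbn was at -0.0116 on centred arrays and -0.0808 with the other indices as covariates, and between -0.0128 and 0.0945 without single tumours. With muscle and adipocyte covariates Rad52 was at -0.0423, Wrn at -0.0553 and Lig4 at -0.21; without those tumours they were at -0.0370, -0.19 and -0.32, and Lig4 was at -0.105 without 30 cGy tumours 1 and 9. The causes were not tested.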

Other observations

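The repair genes resembled each other more than genes at large. Over the 903 pairs of the 43 genes, the median correlation of deviations from the group means was 0.25, against 0.01 over all gene pairs. It was 0.46 among the 25 genes called on the cell cycle index and 0.08 among the other 18. The 25 were chosen for following 1 index in these same tumours, so this difference is built into the choice. These are descriptions, since the tumours and arrays are shared by every pair. Brca1 and Brip1 were the most alike (0.81), followed by Palb2 and Xrcc1 (0.78) and by Rad54l and Fancd2 (0.77). Rad52 and Msh3, neither of them called on the index, had 0.70. The least alike were Xrcc5 and Ercc4 (-0.40).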
